A study of Mus musculus with 175 samples.

Results

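The receptors described here are 9 genes for hematopoietic cytokine receptors and their chains: Epor, Kit, Flt3, Csf1r, Csf2ra, Csf2rb, Csf3r, Il3ra and Il6ra. They were taken by gene symbol from a table of 49585 mouse genes, of which 22262 had at least 1 read, and each of the 9 symbols matched 1 gene. Their reads were followed in single fetal liver progenitors of 4 sorted populations, together with the question of which receptors were read in the same cell.

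All cells came from fetal livers of 14.5 days post fertilization. By the published methods, males of a Runx1 reporter line backcrossed to C57BL/6 were mated with wild type ICR females. The line carries human CD4 as a reporter of the P2 promoter of the transcription factor gene Runx1, cells were sorted as without (P2-) or with (P2+) it, and every population carried the allele. The genotype label reads Runx1 P2-GFP::P2-hCD4/+ whereas the preparation text names P1-GFP::P2-hCD4/+. Livers of 2 litters were pooled before sorting, so each population was 1 sample and its cells were not replicates of a condition.

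The populations were P2- and P2+ megakaryocyte-erythroid progenitors (MEPs) and P2- and P2+ common myeloid progenitors (CMPs). The labels call the CMP populations low and high for the reporter, and they are named P2- and P2+ here. By the published sort, all cells were Lin-, SCA1-, C-KIT+, CD16/32 low, CD41- and CD150+, with CD34 absent on MEPs and present on CMPs. Kit encodes C-KIT, so its protein was part of the gate, and its reads are a description of sorted cells. After filters on reads, the MEPs analysed were 56 without and 47 with the reporter signal, and the CMPs 27 without and 42 with it. These cells had 295064 to 1540631 reads on mouse genes, with population medians of 520540 to 804632 and the lowest median in P2- MEPs. The subtype label of 1 P2- CMP names MEP, and leaving it out changed no count of called receptors.

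Cytokine receptors carry signals for survival, division and lineage output into blood progenitors. EPOR and CSF3R act as pairs of a single chain, whereas KIT, FLT3 and CSF1R are receptor tyrosine kinases. CSF2RA, IL3RA and IL6RA bind their ligands but signal through a shared chain, CSF2RB for the GM-CSF and IL-3 receptors and IL6ST for the IL-6 receptor. EPOR is known for red cell production in the fetal liver, CSF3R for neutrophil output and CSF1R for monocytes and macrophages.

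The sequence upstream of 3 of these genes is printed because Epor was the receptor lower in CMPs than in MEPs, whereas Flt3 and Csf3r were close to 0 in MEPs. The windows are RefSeq promoters of the build GRCm38.p6, cut off at the first annotated start so that no transcribed base is included, and 7 of the 9 genes had a window that was used. Capitals mark a GATA hexamer, which was searched as AGATAA, with T as first base as TGATAA, with G as last base as AGATAG, and with both as TGATAG. The ETS hexamer GAGGAA was searched too, and each motif on either strand.
Epor: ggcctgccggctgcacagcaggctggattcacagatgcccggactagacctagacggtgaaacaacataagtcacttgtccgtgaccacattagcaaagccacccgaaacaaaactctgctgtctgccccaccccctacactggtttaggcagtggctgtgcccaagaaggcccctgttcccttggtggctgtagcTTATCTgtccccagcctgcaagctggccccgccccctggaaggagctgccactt
Flt3: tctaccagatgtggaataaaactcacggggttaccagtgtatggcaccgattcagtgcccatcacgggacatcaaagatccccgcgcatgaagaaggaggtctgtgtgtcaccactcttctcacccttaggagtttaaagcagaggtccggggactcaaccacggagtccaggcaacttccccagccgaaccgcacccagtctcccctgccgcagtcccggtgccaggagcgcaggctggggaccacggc
Csf3r: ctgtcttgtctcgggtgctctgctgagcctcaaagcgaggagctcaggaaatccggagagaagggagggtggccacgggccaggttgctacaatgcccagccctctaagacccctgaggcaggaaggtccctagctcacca

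The Epor window lies at chr9:21963577-21963826 on the minus strand and holds 1 GATA hexamer, AGATAA on the opposite strand, at bases 197 to 202. The Flt3 window (chr5:147400490-147400739, minus strand) and the Csf3r window (chr4:126024409-126024549, plus strand) held neither motif. Of the 4 windows not printed, that of Il6ra, which had no read in P2- MEPs, held both motifs, that of Kit held the ETS hexamer and no GATA hexamer, and that of Csf2ra held neither. The Il3ra window held neither as well, but has only 30 bases, a length in which 4.01% of all promoters held a GATA hexamer and 2.71% the ETS hexamer. Of 27025 RefSeq promoters, 27.1% held a GATA hexamer and 23.1% the ETS hexamer in 250 bases, the length of the Epor and Flt3 windows. In 141 bases, the length of the Csf3r window, the shares were 18.3% and 13.9%. The motifs do not overlap each other in these windows, a match is a description of letters, and the absence of a match is no statement about a factor.

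Epor, the erythropoietin receptor gene (ENSMUSG00000006235.6, chr9:21958897-21963506, minus strand), was highest in P2- MEPs and lowest in P2+ CMPs, with P2+ MEPs above P2- CMPs between them. Levels are given as counts scaled to 1e+06 reads on mouse genes (CPM), either per cell or pooled over a population, and the intervals are exact 95% Poisson or binomial ones that cover counting error only. The lowest, median and highest P2- MEP had 0, 165 and 425 CPM of Epor, and the same cells of the P2+ MEPs had 0, 64.1 and 352.5 CPM.
In P2- CMPs the cells ran from 0 to 199 CPM and in P2+ CMPs from 0 to 185 CPM, with a median of 0 CPM in both. The populations thus overlapped from cell to cell, and the median CMP had no read at all.

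Pooled Epor was 181 CPM in P2- MEPs (interval 176 to 185), 84.1 CPM in P2+ MEPs (81.0 to 87.4), 50.2 CPM in P2- CMPs (46.99 to 53.5) and 22.8 CPM in P2+ CMPs (21.3 to 24.4). No neighbours in this order had overlapping counting intervals. With every cell thinned to 100000 reads, a read was left for 54 of 56 P2- and 32 of 47 P2+ MEPs, against 13 of 27 P2- CMPs and 14 of 42 P2+ CMPs. The exact 95% intervals of these shares were 87.7% to 99.6%, 52.9% to 80.9%, 28.7% to 68.1% and 19.6% to 49.5%, so that P2- MEPs stood apart and the 3 other populations overlapped with their neighbours in the order.

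Among cells with a read of Epor the level differed less, with a median of 167 CPM in P2- MEPs, 104 CPM in P2+ MEPs, 96.9 CPM in P2- CMPs and 69.9 CPM in P2+ CMPs. These medians are given without an interval, and those of P2+ MEPs and P2- CMPs were close. Per kilobase of annotated exon, Epor reached 90.8 RPKM in P2- MEPs and exceeded Kit at 32.9 RPKM, and in P2+ CMPs it was at 11.5 RPKM against 29.1 RPKM of Kit.

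**Figure D1:**
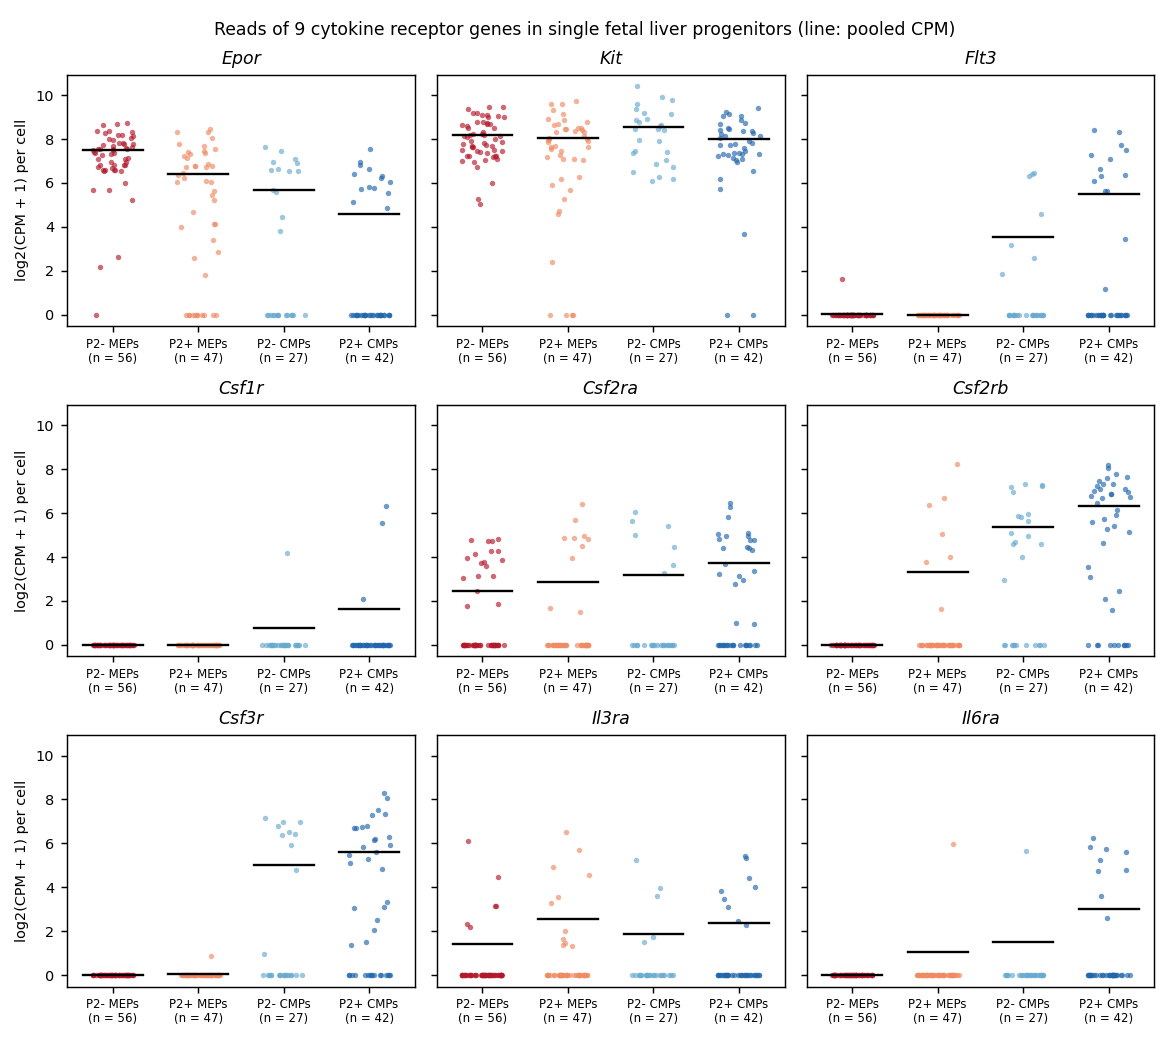
Each point is 1 cell, the y axis is log2(CPM + 1) of the gene named above each panel, and the x axis separates the 4 populations with their numbers of cells. The black line is log2(pooled CPM + 1), with Epor at 181 CPM in P2- MEPs and 22.8 CPM in P2+ CMPs, and points on the floor are cells without a read.

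Kit, the stem cell factor receptor gene (ENSMUSG00000005672.12, chr5:75574916-75656722, plus strand), was read at similar levels in all populations. The lowest, median and highest P2- MEP had 32.3, 248.9 and 711 CPM, against 0, 240 and 854 CPM among P2+ MEPs. Those of P2- CMPs had 67.3, 346.6 and 1368 CPM, and those of P2+ CMPs 0, 215.98 and 692 CPM. The ranges of all 4 populations overlapped.

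Pooled Kit was 293.3 CPM (287.2 to 299.4) for P2- MEPs and 262.2 CPM (256.6 to 267.9) for P2+ MEPs. It was 369.4 CPM (360.6 to 378.3) for P2- CMPs and 259.3 CPM (254.1 to 264.6) for P2+ CMPs. The levels of P2+ MEPs and P2+ CMPs did not differ beyond counting error. P2- CMPs were highest, and no ratio between 2 populations reached 2-fold.

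No read of Kit was found at full depth in 6 cells of all that were analysed, 4 of 47 P2+ MEPs and 2 of 42 P2+ CMPs. These cells had 533020 to 1194793 reads, within the range of the others. Epor was read in 2 of the 6, both P2+ MEPs, at 42.7 and 215.3 CPM.

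Flt3, the FLT3 ligand receptor gene (ENSMUSG00000042817.15, chr5:147330741-147400489, minus strand), was read in CMPs. P2- MEPs held 1 read in 1 cell, and P2+ MEPs held no read among 31573710, which allows up to 0.0950 CPM at 3 reads. In P2- CMPs the cells ran from 0 to 85.4 CPM and in P2+ CMPs from 0 to 340.9 CPM, with a median of 0 CPM in both. Flt3 was thus a gene of a minority of CMPs, 6 of 27 P2- CMPs and 13 of 42 P2+ CMPs at 100000 reads per cell.

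Pooled Flt3 was 10.7 CPM (9.30 to 12.4) in P2- CMPs and 44.8 CPM (42.7 to 47.04) in P2+ CMPs. The shares of cells with a read, 22.2% (8.62% to 42.3%) and 30.95% (17.6% to 47.1%), overlapped. In cells with a read the median was 22.9 CPM in P2- CMPs and 90.7 CPM in P2+ CMPs. The cell with most reads of Flt3 held 30.5% of them in P2- CMPs and 25.5% in P2+ CMPs. Without the cell of highest CPM, which in P2- CMPs was another cell, the pooled levels were 7.82 and 34.5 CPM.

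Csf3r, the G-CSF receptor gene (ENSMUSG00000028859.14, chr4:126024550-126044440, plus strand), followed the same split. P2- MEPs had no read and P2+ MEPs had 1 read in 1 cell. In P2- CMPs the lowest, median and highest cell had 0, 0 and 143 CPM, and in P2+ CMPs 0, 7.54 and 310 CPM. MEPs and CMPs overlapped only through CMPs without a read, apart from that 1 read.

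Pooled Csf3r was 31.5 CPM (29.01 to 34.2) in P2- CMPs and 47.3 CPM (45.1 to 49.6) in P2+ CMPs, from 9 of 27 and 20 of 42 thinned cells. Csf1r, the M-CSF receptor gene (ENSMUSG00000024621.15), was rare. It had no read in either MEP population, 13 reads in 1 P2- CMP and 77 reads in 3 P2+ CMPs, of which 68.8% lay in 1 cell. Of its exon bases, 15.1% overlap exons of Hmgxb3, and counting did not use the strand.

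Csf2rb, the beta chain shared by the GM-CSF and IL-3 receptors (ENSMUSG00000071713.4, chr15:78325752-78353847, plus strand), had no read in 56 P2- MEPs. The lowest, median and highest cell had 0, 0 and 303.7 CPM in P2+ MEPs, 0, 22.9 and 158 CPM in P2- CMPs, and 0, 55.6 and 288.002 CPM in P2+ CMPs. Csf2rb was the receptor, Kit aside, read in most CMPs, with 16 of 27 P2- CMPs and 29 of 42 P2+ CMPs at 100000 reads per cell.

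Pooled Csf2rb was 8.84 CPM (7.83 to 9.94) in P2+ MEPs, 39.8 CPM (36.98 to 42.8) in P2- CMPs and 79.1 CPM (76.3 to 82.1) in P2+ CMPs. In P2+ MEPs 61.3% of the reads came from 1 of 7 cells with a read, and without that cell the level was 3.48 CPM. Csf2rb has a close paralogue beside it, Csf2rb2, whose pooled levels were 4.58 CPM in P2- CMPs and 9.68 CPM in P2+ CMPs, with no read in MEPs. Reads that fit both genes could have been lost or split in counting, so their separate levels are uncertain.

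In CMPs, the ligand-binding chains Csf2ra, Il3ra and Il6ra were read at lower pooled levels than Csf2rb. Csf2ra, the alpha chain of the GM-CSF receptor (ENSMUSG00000059326.6, chr19:61223957-61228429, minus strand), was the only one of the 4 myeloid receptor genes Flt3, Csf1r, Csf2ra and Csf3r with more than 1 read in a MEP population. Its highest cells had 27.03 CPM (P2- MEPs), 85.0 CPM (P2+ MEPs), 64.6 CPM in P2- CMPs and 88.6 CPM in P2+ CMPs. The median was 0 CPM in the first 3 populations and 0.963 CPM in P2+ CMPs, and the populations overlapped widely.

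Pooled Csf2ra was 4.48 CPM (3.76 to 5.29) for P2- MEPs and 6.40 CPM (5.55 to 7.34) for P2+ MEPs. It was 8.13 CPM (6.87 to 9.54) for P2- CMPs, which overlapped with P2+ MEPs in counting error, and 12.4 CPM (11.3 to 13.6) for P2+ CMPs. A read was present in 13 of 56, 9 of 47, 6 of 27 and 17 of 42 thinned cells, shares whose intervals overlapped between neighbours.

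Il3ra, the alpha chain of the IL-3 receptor (ENSMUSG00000068758.7, chr14:14346275-14356011, plus strand), was at 1.67 CPM in P2- MEPs, 4.85 CPM in P2+ MEPs, 2.67 CPM in P2- CMPs and 4.24 CPM in P2+ CMPs. Single cells carried 64.7%, 49.7%, 46.9% and 31.8% of these reads, so the order of the populations rested on few cells. Il6ra, the alpha chain of the IL-6 receptor (ENSMUSG00000027947.11, chr3:89864059-89913196, minus strand), had no read in P2- MEPs and reads in 1 P2+ MEP, 1 P2- CMP and 9 P2+ CMPs. Its pooled level in P2+ CMPs was 6.96 CPM (6.13 to 7.87), against 1.85 CPM (1.28 to 2.59) in P2- CMPs.

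**Figure D2:**
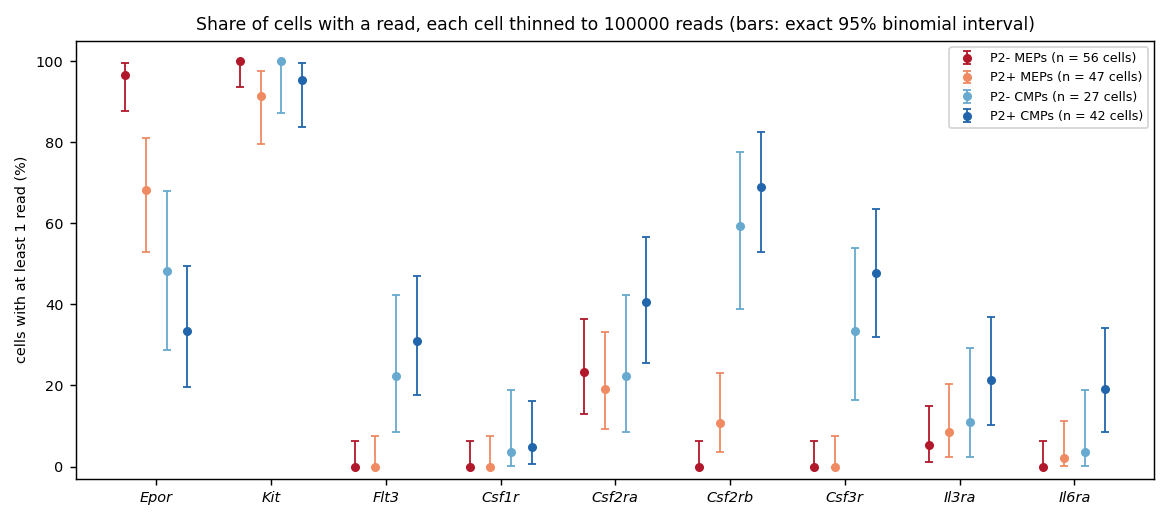
The y axis is the percent of cells with at least 1 read of each receptor gene after thinning to 100000 reads per cell, with exact 95% binomial intervals, and colours mark the 4 populations. Epor fell from 54 of 56 P2- MEPs to 14 of 42 P2+ CMPs, whereas Csf2rb reached 29 of 42 P2+ CMPs from 0 of 56 P2- MEPs.

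With 1 sample in each population there is no test of the comparisons, and a gene was called when its pooled level differed by at least 2-fold and it had a read in at least 25% of the cells of at least 1 of the 2 populations at full depth. Csf1r, Il3ra and Il6ra passed that filter in none of the 4 comparisons. A log2 ratio with a population at 0 was set against 3 reads and is a lower bound. A ratio against 1 read is given with its counting interval, and is not on the same footing as these bounds.

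Between P2+ and P2- MEPs, 3 of the 9 receptors passed the filter, Epor, Kit and Csf2ra. Epor was lower in P2+ MEPs, by 2.15-fold (log2 ratio -1.10, interval -1.17 to -1.03), and no receptor was called higher. Of all 9537 genes that passed, 3.74% were called lower and 7.03% higher, 10.8% in all. The Epor ratio lay near the limit, and was -0.97 with DESeq2 size factors, which ended the call. Csf2ra had a ratio of 0.52 (0.20 to 0.84).
Csf2rb, below the filter, was at least 90.2-fold higher in P2+ MEPs, from 7 cells, with a bound of 6.49 on the log2 scale that became 5.13 without the highest cell. Il3ra was 2.91-fold higher (log2 1.54, 1.07 to 2.03).

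Between P2+ and P2- CMPs, 6 receptors passed the filter, and Flt3 was called higher and Epor lower in P2+ CMPs. Of 10106 genes, 5.3% were called higher and 5.4% lower, 10.7% in all. Flt3 was 4.17-fold higher (log2 2.06, 1.85 to 2.28). Epor was 2.2-fold lower (log2 -1.14, -1.28 to -1.002), but its ratio was -0.89 with DESeq2 size factors and did not reach 2-fold with equal weight for every cell. Csf2rb missed the limit at 0.99 (0.87 to 1.11) and passed it without the highest cell of each population, or without mitochondrial genes and Rn18s-rs5 in the total.
The remaining ratios were 0.61 for Csf2ra (0.34 to 0.88), 0.59 for Csf3r (0.45 to 0.72) and -0.51 for Kit (-0.56 to -0.47).

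Between P2- CMPs and P2- MEPs, 6 receptors passed the filter, of which Flt3, Csf2rb and Csf3r were called higher and Epor lower in CMPs. Of 10000 genes, 14.7% were called higher and 7.62% lower, 22.3% in all. Csf2rb was at least 406-fold and Csf3r at least 321.6-fold higher in P2- CMPs. Against the 1 read of P2- MEPs, Flt3 stood at a log2 ratio of 8.36 (5.87 to 13.67). Flt3 passed the filter with 7 of 27 P2- CMPs at full depth. Without the highest cell of each population it did not pass, and with no read left in P2- MEPs its log2 ratio was a bound of 6.30.
Epor was 3.6-fold lower (log2 -1.85, -1.95 to -1.75), and the ratios of Kit and Csf2ra were 0.33 (0.29 to 0.38) and 0.86 (0.52 to 1.21).

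The same 4 receptors were called between P2+ CMPs and P2+ MEPs, where 11.8% of 10095 genes were called higher and 7.73% lower, 19.5% in all. Flt3 was at least 472-fold higher in P2+ CMPs, and Csf2rb was 8.96-fold higher (log2 3.16, 2.99 to 3.35). Without the highest cell of each population the ratio of Csf2rb was 4.42, outside that counting interval. Csf3r had a log2 ratio of 10.54 against 1 read (8.06 to 15.85), and a bound of 8.71 without the highest cells, when no read was left in P2+ MEPs. Epor was 3.69-fold lower (log2 -1.88, -2.00 to -1.77).
Csf2ra stayed below the limit at 0.95 (0.71 to 1.199) and passed it with equal weight for every cell. These comparisons share populations with each other, so their lists of receptors are not independent.

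**Figure D3:**
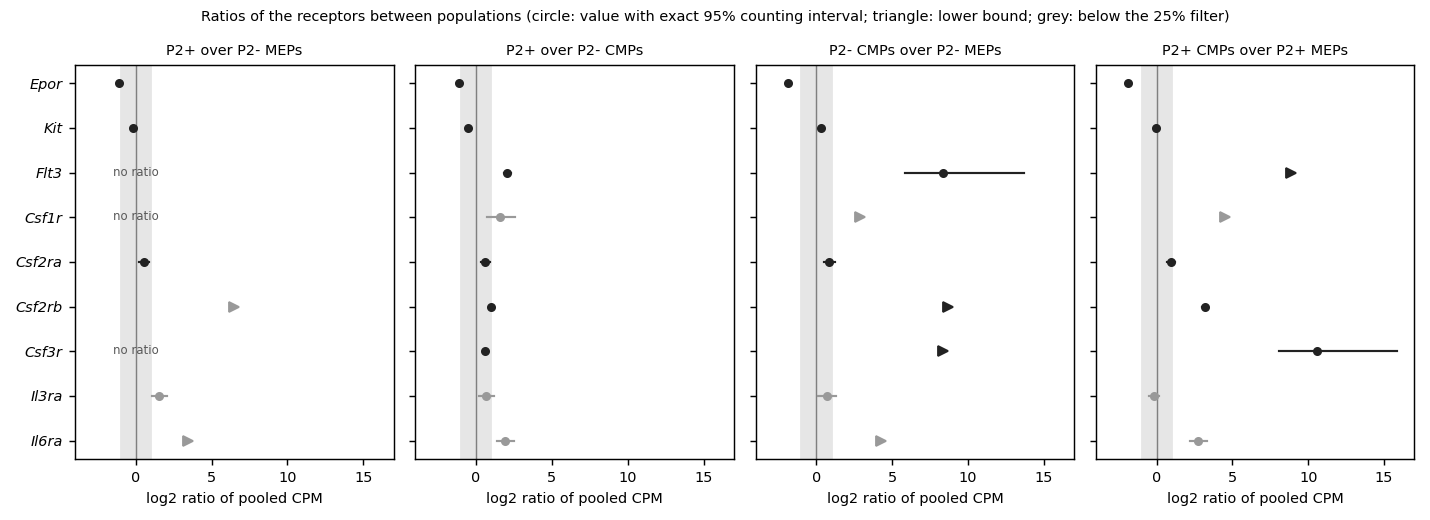
The x axis is the log2 ratio of pooled CPM for the comparison named above each panel, with exact 95% counting intervals, triangles for lower bounds, and a shaded band for ratios within 2-fold. Epor lies left of 0 in all 4 panels, from -1.10 to -1.88, whereas Flt3, Csf2rb and Csf3r lie far to the right in both panels that set CMPs against MEPs.

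Reads of receptors in the same cell were counted after thinning to 100000 reads per cell. The median cell held reads of 2 of the 9 receptors in P2- and P2+ MEPs and of 3 in P2- and P2+ CMPs. P2- MEPs ran from 2 to 3 receptors, P2+ MEPs from 0 to 4, P2- CMPs from 1 to 5 and P2+ CMPs from 0 to 7. At least 4 receptors were read in 0, 2, 9 and 20 cells of these populations, so that the populations overlapped at 2 and 3 receptors and differed at the upper end.

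The receptors made 5 different combinations among 56 P2- MEPs, of which Epor with Kit alone accounted for 41 cells and Epor with Kit and Csf2ra for 12. In 47 P2+ MEPs there were 13 combinations, led by Epor with Kit in 18 cells and Kit alone in 10. In 27 P2- CMPs there were 18 combinations and in 42 P2+ CMPs 32, and none was shared by more than 3 cells of its population. The cell with 7 receptors was a P2+ CMP with reads of Kit, Flt3, Csf1r, Csf2ra, Csf2rb, Csf3r and Il3ra.

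**Figure D4:**
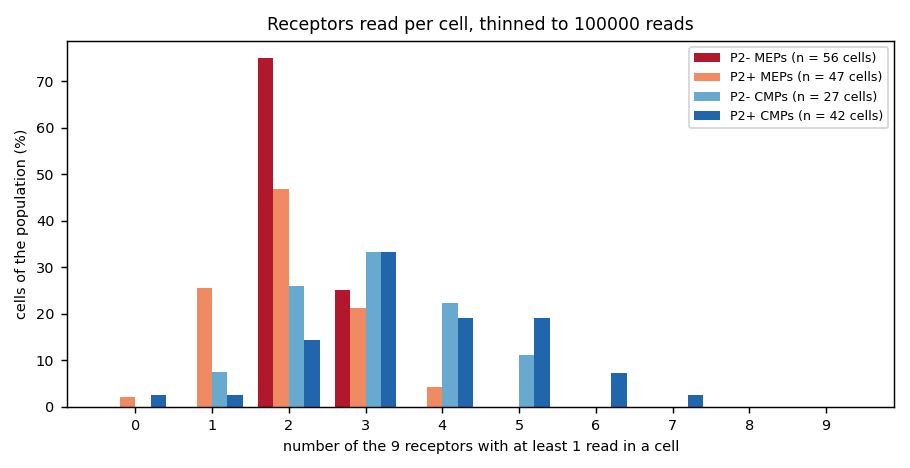
The x axis is the number of the 9 receptors with at least 1 read in a thinned cell, and the y axis is the percent of cells of each population. The bars of P2- MEPs stand at 2 and 3 receptors, whereas P2+ CMPs reach 7.

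Epor and at least 1 of the 4 myeloid receptor genes were read together in 12 cells of the 56 P2- MEPs (21.4%, 11.6% to 34.4%), and likewise in 7 cells of the 47 P2+ MEPs (14.9%, 6.20% to 28.3%). In CMPs this was so for 7 of 27 P2- cells (25.9%, 11.1% to 46.3%) and 8 of 42 P2+ cells (19.05%, 8.601% to 34.1%). The 4 intervals overlapped.
In MEPs the partner of Epor was Csf2ra in every such cell. With Csf2ra left out, an alternative chosen after the data were seen, the counts were 0 of 56, 0 of 47, 4 of 27 and 4 of 42. The upper limits for the MEPs were then 6.38% and 7.55%. Csf2rb, which had no read in P2- MEPs, was not among the 4 genes, and the CMPs with reads of Epor and Csf2rb are counted below.

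The depth of these cells lay within the range of the others. In P2- MEPs the 12 cells had a median of 504290 reads and the others 537965, and in P2+ CMPs the 8 cells had a median of 724458 reads and the others 838352. When 5 reads were required of each gene in place of 1, the counts were 0, 1, 3 and 2 cells in the same order of populations, and the median number of receptors was 2 in each population, so that the difference of medians between MEPs and CMPs was lost.

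Pairs of single receptors were counted within the CMPs. Epor and Flt3 were read together in 3 of the 6 P2- CMPs with a read of Flt3, and in 1 of the 13 P2+ CMPs. Epor and Csf3r shared 2 of 9 and 4 of 20 cells with a read of Csf3r. Epor and Csf2rb shared 7 of 16 and 10 of 29 cells with a read of Csf2rb.
Flt3 and Csf3r were read together in 4 P2- and 8 P2+ CMPs. Csf1r was read with Flt3 in each of the 3 thinned cells that held it.

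**Figure D5:**
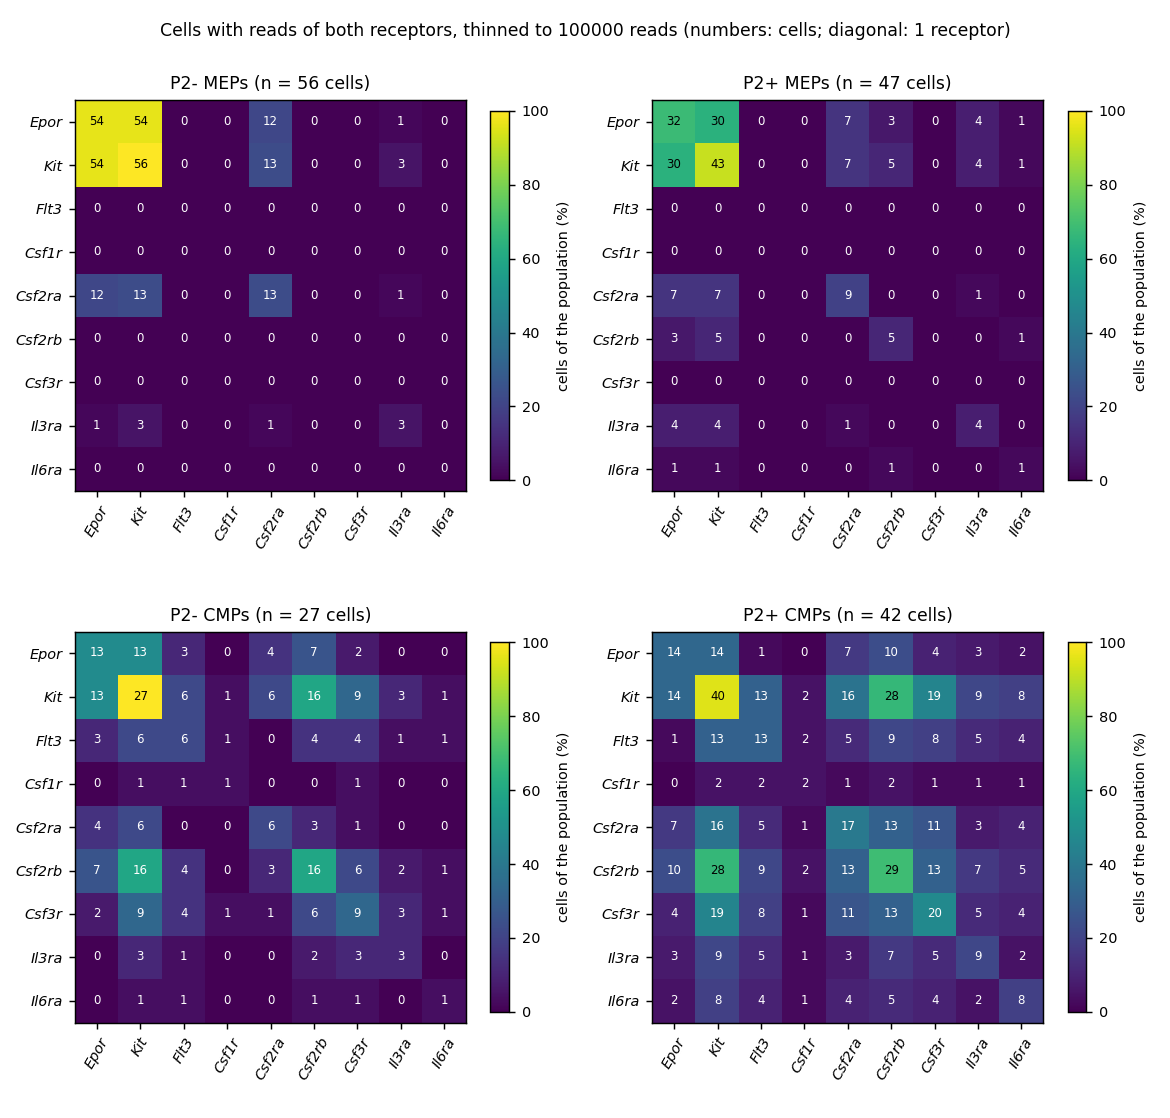
Each panel is 1 population, each square gives the number of thinned cells with reads of the receptors of its row and column, and colour gives the percent of cells. The diagonal counts cells with a read of 1 receptor, as for Csf2ra in 13 and Csf2rb in 0 P2- MEPs.

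A receptor of more than 1 chain needs each of them. In MEPs, Csf2ra was read in 13 P2- and 9 P2+ cells and Csf2rb in 0 and 5, and no cell held both. At full depth this was so as well, with 18 and 10 cells of Csf2ra and 0 and 7 of Csf2rb. With no read of Csf2rb in P2- MEPs, and few cells with either chain in P2+ MEPs, these counts do not show that the chains were kept apart. In CMPs both chains of the GM-CSF receptor were read in 3 of 27 P2- cells (11.1%, 2.35% to 29.2%) and 13 of 42 P2+ cells (30.95%, 17.6% to 47.1%).

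Il3ra was read with Csf2rb or its paralogue Csf2rb2 in none of the 3 P2- and 4 P2+ MEPs that held it, against 2 of 3 P2- CMPs and 7 of 9 P2+ CMPs, and at full depth in 1 of 11 P2+ MEPs and in 2 of 5 and 7 of 9 cells among the P2- and P2+ CMPs. Il6ra and Il6st were read together in 3 cells in all, each of them a P2+ CMP. Il6st had a different order of levels from Il6ra, with 27.5 CPM in P2- CMPs and 8.86 CPM in P2+ CMPs, a log2 ratio of -1.63 (-1.84 to -1.43). In P2- CMPs Il6st was read in 11 cells and Il6ra in 1, too few to compare.

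The genes most like each receptor were found by Spearman correlation of thinned reads over all cells with 8027 genes, which is a description in which differences between populations take part. For Epor they were Klf1 (0.61), an erythroid transcription factor gene, Cpox (0.59), a gene of heme synthesis, and Tnfaip2 (0.58). For Flt3 they were Cd34 (0.51), Ebi3 (0.50) and Mpo (0.49), the gene of myeloperoxidase. CD34 was itself a sort marker between MEPs and CMPs.

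For Csf2rb they were Adgrl4 (0.68), Ifitm1 (0.68) and Cd93 (0.67), and for Csf3r Adgrl4 (0.66), Cd34 (0.62) and Mycn (0.59). Those of Kit did not exceed 0.30, with Notch2, Myb and Mc5r, those of Csf2ra did not exceed 0.29, with Fstl1, Agk and Ppp6c, and those of Il3ra 0.32, with Itih5, Krtcap2 and A230050P20Rik. Csf1r and Il6ra were read in under 10% of cells and were left out. As a mean over the populations in which the thinned reads of the receptor varied (2 to 4 of them) the highest value was 0.58 for Flt3 (Cnn3), 0.55 for Csf3r (Adgrl4), 0.35 for Csf2rb (D10Jhu81e), 0.31 for Kit (Gas5), 0.31 for Csf2ra (Agk), 0.30 for Il3ra (Tpst2) and 0.29 for Epor (Tmem64).

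Within the CMPs, the correlations of receptors with lineage factor genes had different signs. In P2- CMPs, Epor had a correlation of 0.50 with Klf1 and 0.50 with Gata1, whereas Csf3r had -0.66 and -0.64, and 0.79 with Cd34, over 27 cells. In P2+ CMPs these values were 0.30 and 0.31 for Epor, and -0.20, -0.38 and 0.13 for Csf3r, over 42 cells of which 2 held Klf1. Among MEPs, Epor had -0.015 with Klf1 and -0.084 with Gata1 in P2- cells, and 0.33 and -0.037 in P2+ cells. In P2+ CMPs, Flt3 had a correlation of 0.61 with Spi1, the gene of the myeloid factor PU.1, and -0.42 with Gata1, with 13 cells that held Flt3, against 0.087 and -0.16 in P2- CMPs, with 6 such cells. Csf3r had 0.49 with Spi1 in P2+ CMPs and 0.43 in P2- CMPs. These cells came from 1 pool of livers and differed in depth before thinning, and the values carry no test.

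Other receptors of the same families were taken from a list of 32 genes, of which 23 had a read. Between P2+ and P2- MEPs 9 passed the filter and 3 were higher, Il11ra1, Il27ra and Il2rg, with 0 lower and a median log2 ratio of 0.099, against 0.00097 for all genes that passed, of which 7.03% were higher. Between P2+ and P2- CMPs 15 passed, with 3 higher (Csf2rb2, Il27ra and Il15ra), 1 lower (Il6st) and a median of 0.20, against -0.03 for all genes, of which 5.3% were higher and 5.4% lower.
In P2- CMPs over P2- MEPs 11 passed, with 6 higher (Il6st, Il11ra1, Il2rg, Il4ra, Il21r and Crlf2), 0 lower and a median of 1.81. Of all genes 14.7% were higher and 7.62% lower, with a median of 0.02. In P2+ CMPs over P2+ MEPs 13 passed, with 7 higher (Csf2rb2, Il11ra1, Il15ra, Il21r, Crlf2, Il12rb2 and Ifnar1), 0 lower and a median of 1.035. Of all genes 11.8% were higher and 7.73% lower, with a median of -0.03. Il2rg, the common gamma chain, was 3.51-fold higher in P2- CMPs than in P2- MEPs. Without strand in the counting, the levels of Il12rb2, Il2rg and Il4ra are uncertain, since 40.04% of the exon bases of Il12rb2 overlap Serbp1, 30.5% of those of Il2rg overlap Gm20489 and 9.51% of those of Il4ra overlap Gm44876.

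The genes of the ligands were close to silent in these cells. Of the 9 ligand genes measured, Epo, Il34, Csf2, Csf3, Il3, Il6 and Thpo had no read in 116865701 reads. Kitl had 25 reads in 1 P2- CMP, and Csf1 had 8 reads in 1 P2- CMP and 79 reads in 2 P2+ CMPs. Flt3l was not analysed here.

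Markers of other cells were set beside these levels. The 8 erythroid markers summed to 1414 and 688 CPM in the P2- and P2+ MEPs and to 661 and 377.3 CPM in the P2- and P2+ CMPs, the order of Epor. Among them Hbb-bt, a beta globin gene, went the other way, with 9.51 and 9.79 CPM in the P2- and P2+ MEPs and 232.2 and 120.6 CPM in the P2- and P2+ CMPs. The 6 granulocyte and monocyte markers summed to 9.41, 41.6, 293.8 and 534 CPM in that sequence. Mpo and Prtn3 made up most of that sum, with 431 and 90.7 CPM in P2+ CMPs, whereas Elane and Ctsg stayed below 1 CPM in each population and Ms4a3 was higher in P2- CMPs (5.40 CPM) than in P2+ CMPs (0.028 CPM, from 1 read). The 6 stem and multipotent markers, with Cd34 among them, had sums of 11.6, 118, 638 and 952 CPM, and the 6 megakaryocytic markers 33.7, 206, 85.8 and 92.0 CPM. Itga2b, the gene of the sort marker CD41, gave 33.6 and 103 CPM of the megakaryocytic sums of P2- and P2+ MEPs. Itga2b, Gp9 and Gp1bb were highest in P2+ MEPs, whereas Pf4 was highest in P2+ CMPs (7.76 CPM) and Vwf in P2- CMPs (15.2 CPM). The level of Gp1bb is uncertain, since 92.9% of its exon bases overlap Gm49601 or Sept5. The sums were 10.6, 10.3, 24.7 and 13.1 CPM for 4 hepatocyte markers and 0.0653, 1.43, 27.5 and 67.5 CPM for 4 endothelial markers. The granulocyte and monocyte, stem and endothelial sums shared the order of Csf2rb. Most of the endothelial sum was Emcn, with 25.6 and 63.7 CPM in P2- and P2+ CMPs and no read in MEPs. Kdr, Cdh5 and Stab2 reached at most 1.79, 0.743 and 1.35 CPM in any population. The 6 macrophage markers summed to at most 0.385 CPM, with 4 to 5 of them at 0 in each population, and the 6 lymphoid markers to at most 3.22 CPM.
Of 6 mast cell and basophil markers 4 to 5 were at 0 in each population, and the sum was 72.8 CPM in P2- CMPs and 34.2 CPM in P2+ CMPs. The part of these genes in the levels of the receptors was not tested. The labels name no plate, so plates and populations cannot be told apart.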

How the data were processed

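Single cells were sorted into plates and sequenced with a modified Smart-Seq2 protocol, which has no molecular identifiers. The authors trimmed reads with Trimmomatic 0.36, aligned them with STAR 2.4.2a to GRCm38 with ERCC sequences and counted them on exons without strand with HTSeq 0.6.1p1, and the deposited values are raw read counts per gene. The cell table deposited by the authors gives total reads and the percent of unmapped reads. Gene positions and exon lengths are those of GENCODE vM21 on the same build.

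Cells with at least 250000 reads, at most 25% unmapped reads and at most 15% ERCC reads were kept, as in the published filter, which removed 3 of 175 cells. Reads that HTSeq tallied as ambiguous or without a feature were 25.6% and 7.4% of uniquely mapped reads and stayed out of the totals. No doublet caller was run on these plate-sorted cells, and 0 pairs of cells had identical counts. Reads were summed per population and divided by summed reads on mouse genes. RPKM is this level per kilobase of merged exons. Thinning drew 100000 reads per cell without replacement (seed 1). Intervals are exact at 95%, the floor for a count of 0 was 3 reads over the population, and both cover counting error only. Python 3.11.15, numpy 2.4.6, pandas 2.3.3, scipy 1.17.1 and, for alternative size factors, DESeq2 1.42.0 in R 4.3.3 were used, and the calculation was tested on simulated data. The simulated counts varied between cells by counting error only, without the unevenness of the receptors, so they do not bear on single calls.

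The 9 receptors, the gene lists and the alternatives were chosen with earlier results of these data known. The text names all 9, the called genes of the list of other receptors, and for each receptor read in at least 10% of cells the 3 genes of highest correlation. Il6st and Csf2rb2 are also named as partners or relatives of members, and 1 more gene first placed on the list of other receptors was taken off it and is not reported here. Alternatives changed the weighting, scaling, filters, thresholds, depth and seed.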

Additional observations from a re-analysis of the deposited data

Results flagged for a closer look

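The ratio of CMPs to MEPs had opposite signs in P2- and P2+ cells for 2 receptors, and the difference between the ratios was not tested. For Kit the log2 ratio was 0.33 in P2- cells (0.29 to 0.38) and -0.016 in P2+ cells (-0.06 to 0.03). For Il3ra it was 0.68 in P2- cells (0.09 to 1.28) and -0.19 in P2+ cells (-0.53 to 0.14). The intervals of both P2+ ratios include 0. Each P2+ ratio became positive under an alternative given in the next section, so its sign was then no longer opposite.

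Of the 3 cells removed by the filters, 1 P2+ MEP with 27.9% unmapped reads still held reads of 3 receptors, above the 3 reads that a count of 0 allows. It had 61 reads of Kit, 10 reads of Epor and 4 reads of Csf2ra among 315322 reads on mouse genes.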

How the results depend on the processing

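No paired analysis was possible because each population was 1 pool of livers and the numbers of cells only name them. Of 32 alternative counts of receptors past 2-fold, 25 stayed within 1.5 times the reported count. Between P2+ and P2- MEPs the count of 1 became 0 with DESeq2 size factors, 0 at a log2 threshold of 2 and 4 with no filter on the share of cells. Between P2+ and P2- CMPs the count of 2 became 1 with equal weight per cell, 1 with DESeq2 size factors, 1 at a log2 threshold of 2 and 4 with no filter. Without the filter, Csf2rb, Il3ra and Il6ra were added in MEPs and Csf1r and Il6ra in CMPs.

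Of 195 alternative log2 ratios of single receptors, 129 stayed close, 64 moved and 2 changed sign, both between P2+ CMPs and P2+ MEPs. A ratio stayed close when its change did not exceed the distance from the middle to an end of its counting interval. A ratio that moved kept its sign and changed by more, or for a bound by any amount. Kit became 0.023 without mitochondrial genes and Rn18s-rs5 in the denominator, and Il3ra 0.41 without the highest cell of each population. DESeq2 size factors moved the median log2 ratio of all genes by -0.08 to 0.05.

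Cells with Epor and a myeloid receptor became 0% and 2.13% of the P2- and P2+ MEPs and 11.1% and 4.76% of the P2- and P2+ CMPs when 5 reads were required, and the median number of receptors became 2 in P2- and in P2+ CMPs, equal to that of both MEP populations. At 50000 reads per cell the share in P2+ MEPs was 4.26%. With Csf2ra left out, it was 0% in both MEP populations. The causes were not tested. Populations of 27 to 56 cells leave wide intervals on every share.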

Other observations

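Several receptors outside the 9 also differed in level between the populations. Il21r, the IL-21 receptor gene, had no read in P2- MEPs, 0.855 CPM for P2+ MEPs, 33.4 CPM in P2- CMPs and 31.6 CPM in P2+ CMPs. Il15ra, the alpha chain of the IL-15 receptor, was at 27.01 CPM in P2+ CMPs and at 6.27 to 10.5 CPM in the other populations. Il27ra was higher in P2+ cells of both kinds, with 17.7 against 3.89 CPM in MEPs and 27.9 against 8.40 CPM in CMPs.

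Ifngr1, the ligand-binding chain of the interferon gamma receptor, was read in 51 of 56 P2- MEPs and had its highest level there, 173 CPM. It was at 99.2 CPM in P2+ MEPs, 119 CPM in P2- CMPs and 85.3 CPM in P2+ CMPs, and none of its 4 log2 ratios reached 1. These genes were named after their values were seen.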
